A study of Mus musculus with 16 samples.

Results

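The genes described here are those of the oligodendrocyte lineage and of myelin: 33 genes that encode myelin proteins, enzymes of myelin lipids, transcription factors of the lineage, markers of its precursors, and other proteins enriched in oligodendrocytes. They were read out on 16 Affymetrix mouse expression arrays of polysome-associated RNA, that is, RNA held by ribosomes, from the striatum of 16 mice. Members were found by the platform's gene symbol, with Cnp also taken under its older name Cnp1 and Opalin under Tmem10. Of the 33 genes, 30 were measured by 60 probe sets that name 1 gene each, among 16206 such genes on 37112 probe sets. Neu4, a sialidase of precursors, and Enpp2, an enzyme that makes lysophosphatidic acid, had no such probe set here, and the single probe set of Trf, the iron carrier transferrin, was shared with another gene and was not used.

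All mice were C57BL6/J, were killed at 3 months of age and carried tagged ribosomes in D1 medium spiny neurons, the projection neurons of the striatum that bear the dopamine D1 receptor. The 9 deletion mice also had a homozygous deletion of the microRNA gene miR-128-2 in these neurons. As controls served 7 littermates of matching age with the ribosome tag only. Repeat 1 of the experiment held 4 control and 4 deletion mice, and repeat 2 held 3 control and 5 deletion mice. The promoter or Cre line that drove the tag and the deletion is not given in the sources used here. The labels place both in D1 neurons and do not speak of oligodendrocytes.

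Oligodendrocytes wrap axons of the brain in myelin, a stack of membrane rich in cholesterol, galactolipids and a few abundant proteins. They arise from precursors that carry Pdgfra and Cspg4 on their surface and that go through a short-lived stage marked by Gpr17. Olig2, Olig1 and Sox10 are kept on through the lineage, and with Myrf they switch on the myelin genes. In the striatum the bundles of fibres that pass from cortex through the tissue are myelinated, so that a piece of dissected striatum holds oligodendrocytes beside its neurons.

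The microRNA that was deleted is shown first, in its mature 3p form from RefSeq (GRCm38.p6, chr9:112118644-112118664, minus strand), with its seed, bases 2 to 8, in capitals. No member's untranslated region was searched for this seed.
mmu-miR-128-3p: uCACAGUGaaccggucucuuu
The promoters of 4 myelin genes follow: Mog, with which the other members are correlated below, and Mag, Cnp and Opalin. Mag had 3 windows, and the window shown was taken for holding the most of the motifs marked here. Each is a 300 base window from RefSeq (GRCm38.p6), given 5′ to 3′ on the gene's own strand. The windows are those of Mog (chr17:37023349-37023648, minus strand), Mag (chr7:30914814-30915113, minus strand), Cnp (chr11:100574689-100574988, plus strand) and Opalin (chr19:41077064-41077363, minus strand). Capitals mark ACAAAG, a core bound by SOX factors, and CTGGCAC, a form of the MYRF motif, each on either strand.
Mog: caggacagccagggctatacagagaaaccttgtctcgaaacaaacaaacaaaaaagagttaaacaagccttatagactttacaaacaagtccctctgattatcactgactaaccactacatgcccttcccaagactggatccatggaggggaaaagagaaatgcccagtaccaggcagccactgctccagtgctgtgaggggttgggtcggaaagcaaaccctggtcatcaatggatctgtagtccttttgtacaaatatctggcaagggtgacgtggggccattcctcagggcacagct
Mag: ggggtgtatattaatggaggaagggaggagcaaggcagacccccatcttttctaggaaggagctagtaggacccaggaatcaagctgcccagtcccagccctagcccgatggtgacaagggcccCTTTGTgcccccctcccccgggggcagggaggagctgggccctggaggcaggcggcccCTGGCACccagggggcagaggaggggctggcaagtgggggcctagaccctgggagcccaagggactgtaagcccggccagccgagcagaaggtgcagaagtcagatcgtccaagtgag
Cnp: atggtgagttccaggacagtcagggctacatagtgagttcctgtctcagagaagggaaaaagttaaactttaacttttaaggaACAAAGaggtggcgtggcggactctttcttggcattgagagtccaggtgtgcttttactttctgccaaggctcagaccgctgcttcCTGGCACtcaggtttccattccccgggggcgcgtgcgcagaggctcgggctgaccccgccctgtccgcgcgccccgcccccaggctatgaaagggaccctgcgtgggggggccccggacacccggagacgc
Opalin: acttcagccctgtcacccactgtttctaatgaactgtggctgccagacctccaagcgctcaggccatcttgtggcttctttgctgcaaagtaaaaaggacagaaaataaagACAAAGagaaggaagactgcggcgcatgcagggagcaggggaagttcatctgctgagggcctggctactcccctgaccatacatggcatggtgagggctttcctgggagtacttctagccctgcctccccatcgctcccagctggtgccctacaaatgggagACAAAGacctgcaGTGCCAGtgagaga

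The table held 34 such windows for 23 of the measured members and 32851 windows in all. ACAAAG stood in 10 of the 34 (18.7% of all windows hold it) and CTGGCAC in 4 of the 34 (5.01% of all). Mag, Cnp and Opalin held both, and the Mog window held neither. These 3 were the only genes of the 23 with CTGGCAC in a window, so the promoters shown are not typical of the members. Both strands were also searched for 6 other motifs. Of these, ACAATG was in 6 windows (12.6% of all) and AACAAT in 4 (10.7%), and these can overlap. The E-boxes CAGCTG and CATCTG were in 7 (16.3%) and 8 (17.2%), TATAAA was in 4 (13.6%) and GGGCGG in 12 (35.7%). The 2 motifs in capitals were chosen after these counts were seen, and a match is a description of the letters, not a site.

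The deposited values are log2 expression, with every probe set shifted by the authors so that its median across all arrays is 0. They therefore give differences between arrays and no level: a difference of 1 is a doubling, and no value can show whether a gene was present at all, nor be set against another gene's level. For the same reason the labelled cell type could not be checked by the level of D1 neuron markers. The precision is limited by the number of arrays. A gene's value is the mean over its probe sets, and n is 7 control and 9 deletion arrays unless stated otherwise.

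The first feature of these genes is that 2 control arrays were far above the other 14. They are replicate 3 of repeat 1 and replicate 1 of repeat 2, which were already known from earlier results to be high in oligodendrocyte markers, so the counts here describe them and test nothing. They were the 2 highest of 16 arrays for 20 of the 30 measured members, against 3.19% of all genes. By role this held for 9 of 10 myelin proteins, 3 of 4 lipid and acetate enzymes, 4 of 4 transcription factors, 1 of 5 precursor genes and 3 of 7 other enriched genes. The median of the 30 members was 1.15 on control repeat 1 replicate 3 and 0.93 on control repeat 2 replicate 1. On the other 14 arrays it lay between -0.15 on deletion repeat 2 replicate 1 and 0.25 on deletion repeat 1 replicate 4. The RNA was pooled over many cells and is labelled as polysome RNA of D1 neurons. In such RNA, more cells of a type, more RNA per cell and more RNA from cells without the tag cannot be told apart. None of these was tested. The genotype difference of each gene described in full below is given with and without these 2 control arrays.

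**Figure D1:**
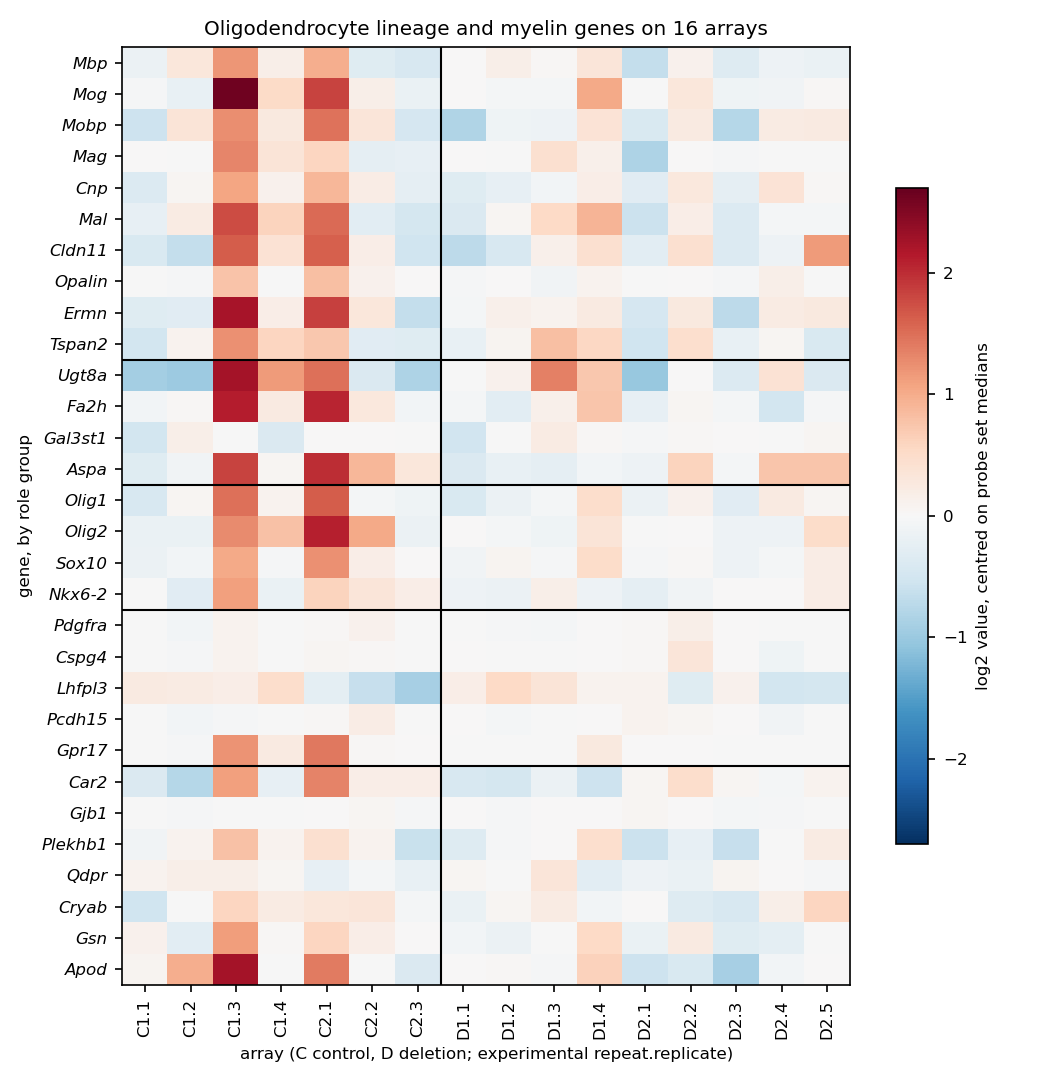
Centred log2 value of each of the 30 measured genes (rows, grouped by role: myelin proteins, lipid and acetate enzymes, transcription factors, precursors, other enriched genes) on each of the 16 arrays (columns, C control and D deletion, with experimental repeat and replicate). Columns C1.3 and C2.1 are the 2 highest of 16 for 20 of the 30 genes, while the rows of Pdgfra, Cspg4, Pcdh15 and Gjb1 stay near 0.

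Mog, a glycoprotein on the outermost face of myelin, had the highest single value of all members. In repeat 1 its control values were -0.036, -0.19, 2.62 and 0.51, and its deletion values were 0.015, -0.063, -0.046 and 1.03. In repeat 2 the controls were at 1.83, 0.15 and -0.17, and the deletion arrays at -0.015, 0.31, -0.12, -0.093 and 0.041. The 2 control arrays were highest, deletion repeat 1 replicate 4 came next, and the genotypes overlapped, with the lowest value of all on a control array. The fitted difference of deletion minus control was -0.53 ± 0.39 (SE, limma, adjusted p = 0.784), and 0.09 ± 0.18 without the 2 arrays.

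Mbp, the basic protein that compacts the myelin membrane, ran from -0.43 through a median of 0.15 to 1.18 in controls. In deletion arrays it ran from -0.65 through 0.0019 to 0.33. The 2 control arrays, at 1.18 and 0.98, were again the highest, and the remaining 5 controls, from -0.43 to 0.32, lay within the deletion range. The difference was -0.28 ± 0.22 (SE), with a 95% interval of -0.74 to 0.19 and a limma adjusted p of 0.811. Without the 2 arrays it was 0.08 ± 0.12.

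The other 8 myelin proteins were Mobp, Mag, Cnp, Mal, Cldn11, Opalin, Ermn and Tspan2. Mobp, a basic protein of compact myelin, was at 1.25 and 1.48 on the 2 control arrays and at most 0.38 elsewhere, and Cnp, the phosphodiesterase of uncompacted myelin, was at 1.06 and 0.89 and at most 0.37. Ermn, a cytoskeletal protein of late oligodendrocytes, stood at 2.24 and 1.85 on the 2 control arrays, and its next highest value was 0.31. Mal, a raft proteolipid of myelin, was at 1.77 and 1.52, against 0.91 on deletion repeat 1 replicate 4. Cldn11, the claudin of the tight junctions between myelin layers, was at 1.63 and 1.61. It was also high on 1 deletion array, repeat 2 replicate 5, at 1.14. Mag, an adhesion molecule of the membrane next to the axon, was at 1.32 and 0.59, with deletion repeat 1 replicate 3 close behind at 0.43. By the gene's value Tspan2, a tetraspanin of myelin, was the exception among the myelin proteins, though its probe sets differed, as given below. Control repeat 1 replicate 3 was highest at 1.24, but deletion repeat 1 replicate 3, at 0.82, was above control repeat 2 replicate 1, at 0.73.

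Fa2h, which hydroxylates the fatty acids of myelin galactolipids, ran from -0.078 through 0.25 to 2.12 in controls and from -0.50 through -0.051 to 0.74 in deletion arrays. The 2 control arrays, at 2.12 and 2.07, were more than 1 log2 unit above every other array. The difference was -0.68 ± 0.35 (SE, limma, adjusted p = 0.625) and shrank to -0.086 ± 0.16 without them. Ugt8a, which makes galactosylceramide, varied most among all members, with an SD of 0.99 over 16 arrays and 0.77 over the other 14. Its controls ran from -0.99 through -0.40 to 2.25, and its deletion arrays from -1.01 through 0.0042 to 1.35. Control repeat 1 replicate 4, at 1.14, and deletion repeat 1 replicate 3, at 1.35, were also high, so that its spread was not that of the 2 arrays alone. Its difference was -0.081 ± 0.49 (SE, limma, adjusted p = 1) over 16 arrays and 0.60 ± 0.37 over 14, the largest positive difference among the members without the 2 arrays, with an unadjusted p of 0.135 and an interval of -0.21 to 1.41.

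Aspa, which splits N-acetylaspartate and frees acetate for lipid synthesis, was at 1.82 and 1.99 on the 2 control arrays, above 0.89 on control repeat 2 replicate 2. Gal3st1, which adds sulfate to galactosylceramide to give sulfatide, did not share this pattern. It was at -0.018 and 0.013 on the 2 arrays, and its range over all 16 was -0.51 to 0.22.

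Olig1, a basic helix-loop-helix factor of the lineage, ran from -0.42 through 0.043 to 1.63 in controls and from -0.42 through -0.048 to 0.46 in deletion arrays. The 2 control arrays, at 1.48 and 1.63, stood above all others, and the other 5 controls, from -0.42 to 0.085, overlapped the deletion arrays. Its difference was -0.41 ± 0.29 (SE, limma, adjusted p = 0.768), and 0.064 ± 0.14 without the 2 arrays.

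Olig2, needed for oligodendrocytes to be specified, showed the smallest p of the members. Its values in controls were -0.17, -0.17, 1.28 and 0.79 in repeat 1 and 2.09, 1.02 and -0.15 in repeat 2. In deletion arrays they were 0.012, -0.044, -0.11 and 0.36 in repeat 1 and -0.012, 0.019, -0.13, -0.13 and 0.49 in repeat 2. Here 4 of the 7 control arrays, not only 2, were above every deletion array, and the other 3 were below every deletion array. The difference was -0.65 ± 0.29 (SE), with an unadjusted limma p of 0.044 and an adjusted p of 0.559. Without the 2 arrays it was -0.23 ± 0.21, with an unadjusted p of 0.308.

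Sox10, the SOX factor that holds oligodendrocyte identity, was at 1.02 and 1.23 on the 2 control arrays and at most 0.49 elsewhere, on deletion repeat 1 replicate 4. Its controls ran from -0.16 through 0.016 to 1.23 and its deletion arrays from -0.13 through -0.025 to 0.49. The difference was -0.26 ± 0.20 (SE, limma, adjusted p = 0.799), and 0.07 ± 0.10 without the 2 arrays. Nkx6-2, a homeodomain factor of myelinating cells, was at 1.10 and 0.60 on these arrays and at most 0.32 on the others.

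The precursor genes divided. Gpr17, the receptor of the stage between precursor and myelinating cell, followed the myelin genes: it was at 1.22 and 1.41 on the 2 control arrays and at most 0.26 on the other 14. Its controls ran from -0.024 through 0.024 to 1.41 and its deletion arrays from -0.018 through -0.011 to 0.26. Apart from the 2 high controls, the genotypes overlapped. The difference was -0.39 ± 0.21 (SE, limma, adjusted p = 0.642), and -0.016 ± 0.054 without the 2 arrays.

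Pdgfra, the growth factor receptor that drives precursors to divide, stayed within -0.067 to 0.16 on all 16 arrays, and was at 0.092 and 0.022 on the 2 control arrays. Cspg4, the NG2 proteoglycan of precursors, stayed within -0.12 to 0.33 by the gene's value, with its highest value on deletion repeat 2 replicate 2. The probe sets of Cspg4 differed, as given below. Pcdh15, a protocadherin enriched in precursors, stayed within -0.098 to 0.19. These 3 genes hardly varied, with SDs of 0.058, 0.094 and 0.066 over the 16 arrays. On centred values a gene near the detection limit and a steady bright one cannot be told apart, so this flatness says nothing of their level. Their differences were -0.013 ± 0.030 for Pdgfra, 0.0058 ± 0.049 for Cspg4 and -0.025 ± 0.033 for Pcdh15 (SE, limma, adjusted p of 1, 1 and 0.937). Without the 2 arrays they were -0.0020 ± 0.032, 0.026 ± 0.057 and -0.032 ± 0.039.

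**Figure D2:**
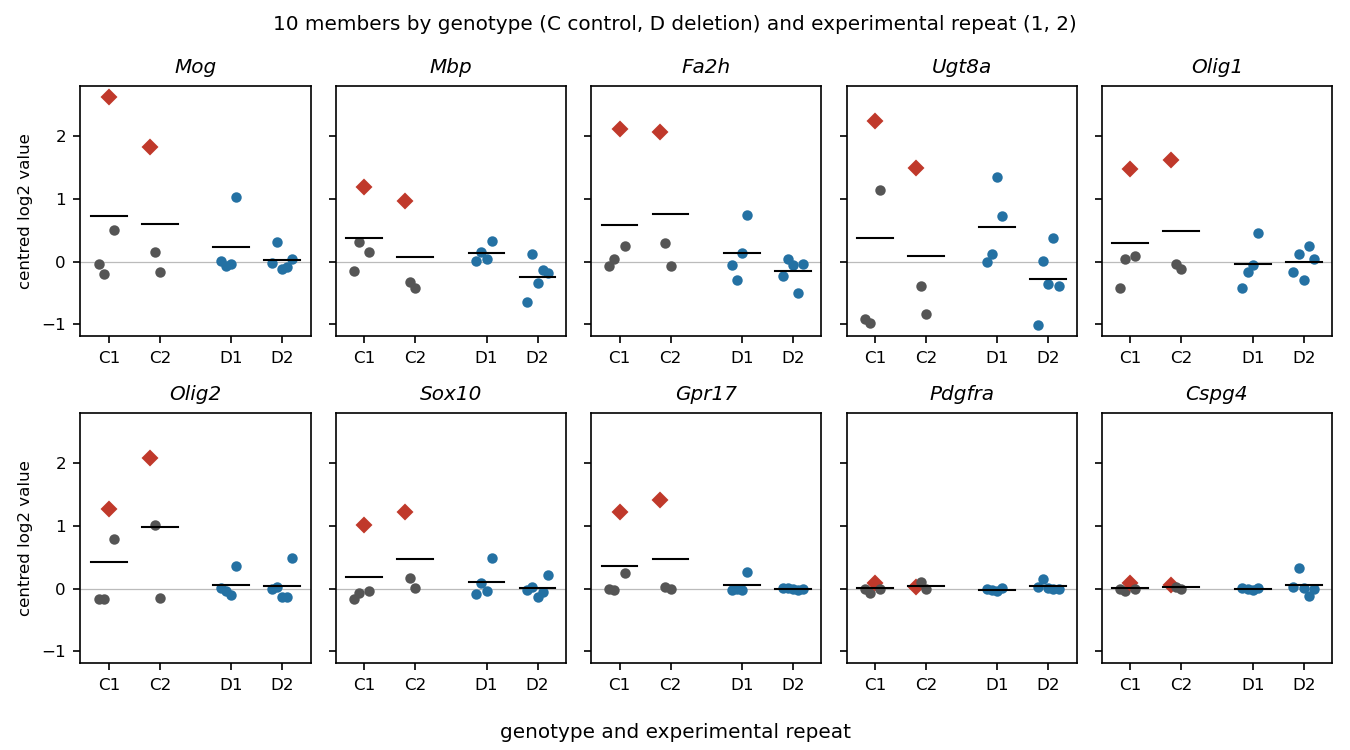
Centred log2 values of 10 members (panels) for each array, by genotype and experimental repeat (C1 and C2 control, D1 and D2 deletion), with bars at group means. Red diamonds are control repeat 1 replicate 3 and control repeat 2 replicate 1, which stand above the rest in the panels of Mog, Mbp, Fa2h, Olig1, Sox10 and Gpr17 and not in those of Pdgfra and Cspg4.

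Lhfpl3, a membrane protein gene enriched in precursors, had the most positive genotype difference of the members, 0.19 ± 0.12 (SE, limma, adjusted p = 0.750), and 0.23 ± 0.14 without the 2 control arrays. Its controls were at 0.24, 0.22, 0.19 and 0.47 in repeat 1 and at -0.27, -0.62 and -0.90 in repeat 2. Its deletion arrays were at 0.17, 0.55, 0.35 and 0.092 in repeat 1 and at 0.085, -0.34, 0.12, -0.49 and -0.47 in repeat 2. The genotypes overlapped, whereas the repeats overlapped only through deletion repeat 2 replicate 3, which was above deletion repeat 1 replicate 4.

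Among the other enriched genes, Apod, a lipid-binding lipocalin, had the most negative genotype difference of all members. Its controls ran from -0.39 through 0.072 to 2.24 and its deletion arrays from -0.90 through -0.038 to 0.63. The 2 control arrays were highest, at 2.24 and 1.41, and a further control, repeat 1 replicate 2, was at 0.99. The difference was -0.70 ± 0.33 (SE), with an interval of -1.4 to 0.0028, an unadjusted limma p of 0.051 and an adjusted p of 0.576. It was -0.19 ± 0.20 without the 2 arrays.

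Car2, a carbonic anhydrase of oligodendrocytes, was at 1.10 and 1.33 on the 2 control arrays and at most 0.47 elsewhere. Gsn, the actin-severing protein gelsolin, was at 1.12 and 0.59, with deletion repeat 1 replicate 4 close behind at 0.53. Plekhb1, Cryab and Qdpr were less tied to the 2 arrays by the gene's value, though the probe sets of Cryab and Qdpr differed, as given below. Plekhb1 was at 0.80 and 0.43 there, against 0.45 on deletion repeat 1 replicate 4, and Cryab, a small heat shock protein, was highest on deletion repeat 2 replicate 5, at 0.58. Qdpr, which regenerates tetrahydrobiopterin, was at 0.16 and -0.23 on the 2 arrays. Gjb1, a connexin of gap junctions, stayed within -0.045 to 0.052 on all 16.

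Array by array, control repeat 1 replicate 3 was above 0.5 for 23 of the 30 members and control repeat 2 replicate 1 for 21, against 4.04% and 5.11% of all genes. Next came deletion repeat 1 replicate 4 with 7 members above 0.5, then control repeat 1 replicate 4 with 5. Deletion repeat 1 replicate 4 was the third highest array for 9 of the 20 members that were highest on the 2 control arrays. At the low end, deletion repeat 2 replicate 1 was below -0.5 for 7 members and control repeat 2 replicate 3 for 5. Among the 14 other arrays, high and low values of these genes thus came from both genotypes.

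Between the genotypes, the myelin and lineage genes were lower on average in the deletion arrays, but no member passed the test. The shift was not seen without the 2 control arrays. Those arrays are controls picked for high values of genes like these, so leaving them out raises such differences by construction. The change is given as a description and is no test of genotype. Of the 30 measured members 26 had a negative difference and 4 a positive one, with a median of -0.27, against -0.0026 for all genes. None was called higher (0.0617% of all genes were) and none lower (0% of all genes were) by limma at an adjusted p under 0.05, with genotype and experimental repeat as terms. At an unadjusted p under 0.05 there was 1 member, Olig2, against 8.69% of all genes in either direction and 3.71% lower. No member had deletion and control arrays that did not overlap (0.037% of all genes did). By role the median differences were -0.30 for myelin proteins, -0.36 for lipid and acetate enzymes, -0.36 for transcription factors, -0.013 for precursor genes and -0.21 for other enriched genes.

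Without the 2 control arrays, leaving 5 controls and 9 deletion arrays, 16 members were positive and 14 negative, with a median of 0.0027 against -0.0037 for all genes. Then 14 members had the opposite sign from before, among them Mbp, Mog, Mag, Cnp, Mal, Cldn11 and Ermn. Differences ran from -0.23 for Olig2 to 0.60 for Ugt8a. Limma called none of the 30 (0.00617% of all genes), and none had an unadjusted p under 0.05 (4.79% of all genes). The intervals at this number of arrays were still wide for some genes: -0.17 to 0.33 for Mbp, -0.31 to 0.49 for Mog and -0.43 to 0.83 for Cldn11. They were narrow for Gpr17, at -0.13 to 0.10, and for Opalin, at -0.090 to 0.071. Both genes varied little on these 14 arrays, with SDs of 0.095 and 0.063. Opalin's value is also a mean with 1447487_at, a probe set with an SD of 0.060 over all 16 arrays. Whether either gene was detected on the 14 arrays cannot be told from centred values, so a narrow interval does not show that genotype made no difference.

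**Figure D3:**
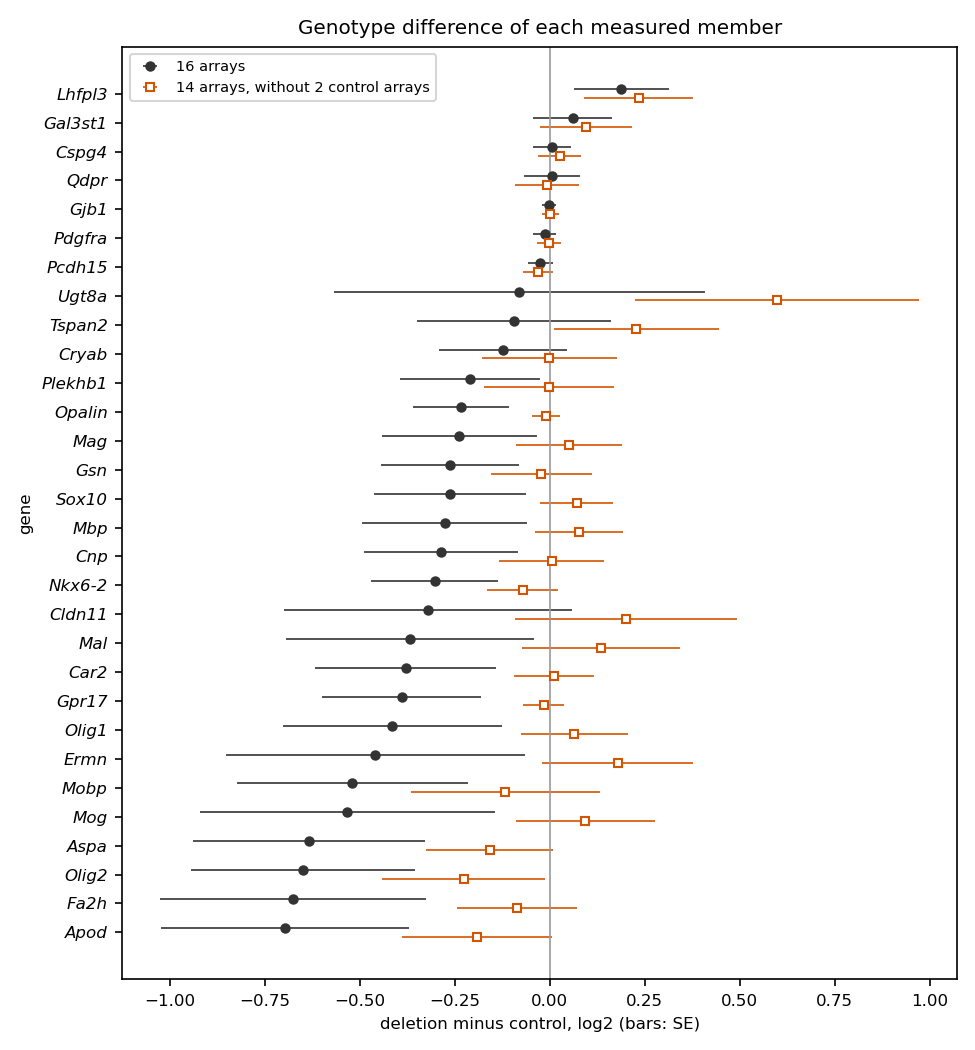
Fitted difference of deletion minus control on the log2 scale (x axis, bars SE) for each measured member, over all 16 arrays (filled circles) and without control repeat 1 replicate 3 and control repeat 2 replicate 1 (open squares). The filled circles of 26 genes lie below 0, whereas the open squares lie on both sides of it, 16 above and 14 below.

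Each repeat held 1 of the high control arrays, which stays in the values of this paragraph. In repeat 1 alone (4 against 4 arrays) 25 of 30 members were negative and in repeat 2 alone (3 against 5) 26 of 30 were. Olig2, for example, was -0.38 ± 0.35 in repeat 1 and -0.94 ± 0.45 in repeat 2 (SE), and Mog was -0.49 ± 0.65 and -0.58 ± 0.42. The test of the difference between repeats called no member (0% of all genes higher, 0% lower, limma interaction term), and 0 members had an unadjusted p under 0.05, against 4.22% of all genes.

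Between the repeats themselves, Lhfpl3 was lower in repeat 2, at -0.67 ± 0.12 (SE, limma, adjusted p = 0.0025), the sole member called. Among all genes 7.84% were called higher and 7.1% lower. Over all 16 arrays Aspa, at 0.65 ± 0.30, Car2, at 0.57 ± 0.24, and Mbp, at -0.34 ± 0.21, had limma adjusted p of 0.181, 0.129 and 0.281. Without the 2 control arrays the limma adjusted p was under 0.05 for 4 members, 2 higher in repeat 2 (7.41% of all genes) and 2 lower (6.43%): Aspa at 0.65 ± 0.16, Car2 at 0.56 ± 0.10, Lhfpl3 at -0.71 ± 0.14 and Mbp at -0.41 ± 0.11. Since those arrays were picked for high values of genes like these, leaving them out also lowered the genes' own spread, and these calls are given as a description. Leaving out control repeat 1 replicate 3 alone also gave 2 members called higher, and leaving out deletion repeat 1 replicate 4 gave 2 called lower.

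Probe sets of 1 gene did not always move together. Of the 8 probe sets of Mbp, 5 were high on both control arrays, from 1.4 to 1.91, while their highest value elsewhere was 0.58. The other 3 were not: 1425263_a_at was at 0.66 and 0.037, 1425264_s_at at 0.038 and -0.39, and 1451961_a_at at -0.0055 and 0.022. The gene's mean over all 8 therefore understates the values of the 5. Sox10 was carried by 1451689_a_at, at 2.05 and 2.00, whereas 1424985_a_at was at -0.0024 and 0.46. Opalin was carried by 1435854_at, at 1.56 and 1.62, whereas 1447487_at stayed at -0.018 and 0.016. For Cryab, 1434369_a_at was highest on the 2 arrays, at 1.03 and 1.14 against at most 0.80 elsewhere. Its 1416455_a_at was at 0.70 and -0.24 and its 1435837_at at -0.016 and 0.016. For Qdpr, 1437993_x_at was highest there, at 0.28 and 0.14 against at most 0.088, and 1423664_at was at 0.043 and -0.61. For Tspan2, 1432417_a_at was highest there, at 0.63 and 0.50 against at most 0.077. Its 1424567_at was at 1.46 and 1.02 against at most 1.32, and its 1424568_at at 1.64 and 0.66 against at most 1.13. For Cspg4, 1450944_at was highest on the 2 arrays, at 0.18 and 0.10 against at most 0.028. Its 1423341_at was at -0.0056 and 0.013, against at most 0.64 elsewhere. What each probe set matches in the transcripts was not analysed here.

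**Figure D4:**
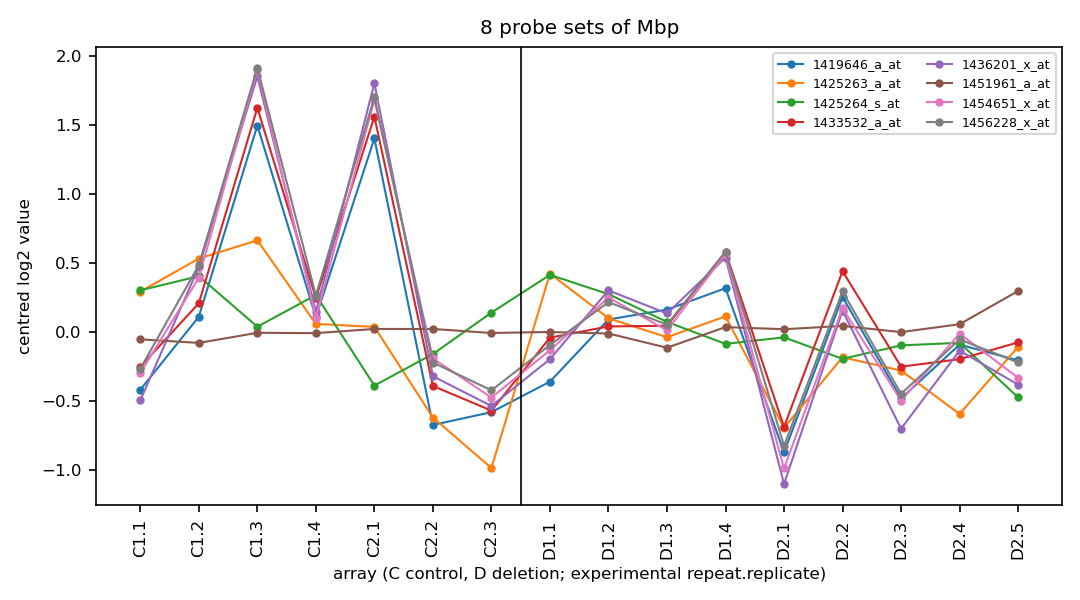
Centred log2 value (y axis) of the 8 probe sets of Mbp on the 16 arrays (x axis, C control and D deletion, with experimental repeat and replicate), with lines that join the points of 1 probe set and imply no order. On C1.3 and C2.1, 5 probe sets lie between 1.4 and 1.91 and the other 3 lie at or below 0.66.

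Over all 60 probe sets, limma called 0 higher and 0 lower in deletion arrays (0.0296% and 0.00269% of all probe sets). At an unadjusted p under 0.05 there were 3 (6.84% of all probe sets). They were 1433990_at of Lhfpl3, which was positive at 0.36 ± 0.12 (SE), 1416232_at of Olig2 at -0.65 ± 0.30, and 1437993_x_at of Qdpr at -0.096 ± 0.042. Without the 2 control arrays they were at 0.28 ± 0.12, -0.23 ± 0.22 and -0.042 ± 0.033. The other probe set of Lhfpl3, 1429592_at, was at 0.017 ± 0.21 over 16 arrays and 0.19 ± 0.22 without the 2. That of Qdpr, 1423664_at, had the opposite sign, at 0.11 ± 0.14 and 0.026 ± 0.15. In the authors' deposited table, 1433990_at of Lhfpl3 was the single one of the 60 with a p under 0.05, at 0.0138 (6.16% of all probe sets were under it). By the same test of the authors, 1429592_at of Lhfpl3 had a p of 0.893. The 2 control arrays were the highest of 16 for 36 of the 60 probe sets, against 2.83% of all.

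Across the 14 other arrays the members still tended to vary with Mog, though no single relation passed the test over all genes. Pearson's r with Mog, after each value was centred on its repeat's mean, had a median of 0.47 over the 29 other members, against 0.12 over all 16205 other genes, and 25 of the 29 were positive. No member was called (0% of all genes), the smallest adjusted p over all genes being 0.0597 in a permutation test of 100000 permutations within repeats. At an unadjusted p under 0.05 there were 14 members with a positive r (11.3% of all genes) and 1 with a negative r (9.09%). Gpr17 was closest, at r = 0.90 (Spearman's rho 0.88, permutation p = 0.00084, adjusted p = 0.0862, with rho's adjusted permutation p at 0.216). Gsn was at 0.81 (rho 0.59), Fa2h at 0.78 (rho 0.69), Sox10 at 0.75 (rho 0.48) and Mal at 0.69 (rho 0.54). Mag was only at 0.19 (rho 0.42), Nkx6-2 at -0.075 (rho -0.11), and Qdpr at -0.68 (rho -0.42).

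Single relations moved both ways without the 2 arrays where Mog was farthest from its median, deletion repeat 1 replicate 4 at 1.03 and control repeat 1 replicate 4 at 0.51. Without them the members' median r was 0.34 (0.11 for all genes), 25 of 29 were positive, and r was lower for 19 and higher for 10. Gpr17 then was at 0.61, Fa2h at 0.42, Sox10 at 0.36, Mal at 0.28, Olig1 at 0.076 and Gsn at 0.76. Higher than before were Pdgfra, which went from 0.53 to 0.90, Cspg4, from 0.36 to 0.78, Car2, from 0.22 to 0.67, Gjb1, from 0.33 to 0.64, and Ermn, from 0.50 to 0.66. Spearman's rho was then 0.76, 0.66, 0.57, 0.67 and 0.70 for these genes in this order. Among the arrays left, Mog, Pdgfra, Cspg4 and Car2 all were highest on deletion repeat 2 replicate 2, at 0.31, 0.16, 0.33 and 0.47, so their r leans on that array. The small spread of Pdgfra, Cspg4 and Gjb1 is given above. The median over all genes also differed between arrays, from -0.031 on control repeat 1 replicate 2 to 0.044 on deletion repeat 2 replicate 1. Pdgfra, Cspg4 and Gjb1 were at -0.067, -0.038 and -0.035 on the former and at 0.032, 0.033 and 0.052 on the latter. The part of such shifts of whole arrays in these r was not tested. Within repeat 1 the members' median r was 0.61 and within repeat 2 it was 0.51, against 0.21 and 0.15 for all genes. The 5 genes outside the list with the highest r over 14 arrays were Doc2g (0.95), Evc (0.92), Zfhx2 (0.91), Mab21l2 (0.90) and Gp1bb (0.90). Without the 2 farthest arrays they were at 0.76, 0.49, 0.33, 0.70 and 0.68.

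Other genes of the lineage, 55 that are no members and of which 48 were measured, were read in the same way. Limma called none higher (0.0617% of all genes) and none lower (0%), with none at an unadjusted p under 0.05 (8.69%). Of the 48, 37 were negative and 11 positive in deletion against control, with a median of -0.094. Of all 16206 genes 8867 were negative, with a median of -0.0026. Without the 2 control arrays 33 of the 48 were positive, with a median of 0.033, against 7089 of all genes and -0.0037. For 17 of the 48 the 2 control arrays were the highest of 16 (3.19% of all genes). Myrf, the factor that switches on myelin genes, was at 2.42 and 3.00 on them and at most 0.28 on the other 14. It had the most negative difference of the 48, -0.77 ± 0.44 (SE, limma, adjusted p = 0.673), and 0.029 ± 0.049 without the 2 arrays. Others did not share its pattern: Aatk was at 0.91 and -0.60 on the 2 arrays, Omg at 0.36 and -0.40 and Pde4b at -0.31 and -0.058.

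Markers of other cells were read on the same arrays by the mean centred value of each list, and on the 2 control arrays some lists lay outside the range of the other 14 arrays and some within it. The 13 oligodendrocyte markers, all of them members here, were at 1.53 and 1.38 and between -0.36 and 0.44 elsewhere. Microglial markers (6 of 9 measured) were at 0.52 and 0.59, against at most 0.19 elsewhere. Vascular markers (4 of 9) were at 0.21 and 0.31, against at most 0.16. Astrocyte markers (10 of 10) were at 0.42 and 0.21, against at most 0.38, and markers of D2 neurons (3 of 5) were at 0.56 and 0.54, against at most 0.37. Gene by gene, the 2 arrays were the highest of 16 for 3 of the 6 microglial and 1 of the 4 vascular genes. This held for 1 of the 10 astrocyte and 2 of the 3 D2 neuron genes, against 3.19% of all genes. The mean of the D1 neuron markers (7 of 8) was lowest on these arrays, at -0.19 and -0.28, and lay between -0.16 and 0.22 on the rest. Singly, Drd1 was lowest there, at -0.23 and -0.54, as was Tac1, at -0.074 and -0.19. Pdyn, Slc35d3, Sfxn1 and Eya1 were each lower on another array, such as Pdyn at -1.07 on control repeat 2 replicate 2. Isl1 was at -0.15 and 0.25 on the 2 arrays. Markers of choroid plexus and ependyma (6 of 8) differed between the 2 arrays: their mean was -0.14 on control repeat 1 replicate 3 and 1.47 on control repeat 2 replicate 1, against -0.38 to 0.87 elsewhere. Ttr, the transthyretin of choroid plexus, was at -0.33 and 7.35 on them, and from -2.57 to 5.08 on the others. The list's mean on control repeat 2 replicate 1 rested mostly on Ttr. Of its other genes Otx2 was at 1.32 there, Kl at 0.22, Foxj1 at 0.021, Folr1 at 0.017 and Clic6 at -0.089. Interneuron markers (5 of 6) were at 0.60 and 0.50, against at most 0.62 elsewhere, and markers of cortical glutamatergic neurons (5 of 6) at 0.28 and 0.37, against at most 0.43. Markers shared by striatal projection neurons (5 of 6) were at -0.0021 and -0.11, within -0.23 to 0.17. The deletion arrays spanned -0.016 to 0.22 for D1 neuron markers and -0.16 to 0.19 for microglial markers, and the controls -0.28 to 0.064 and -0.11 to 0.59. The part of these markers in the oligodendrocyte values was not tested.

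**Figure D5:**
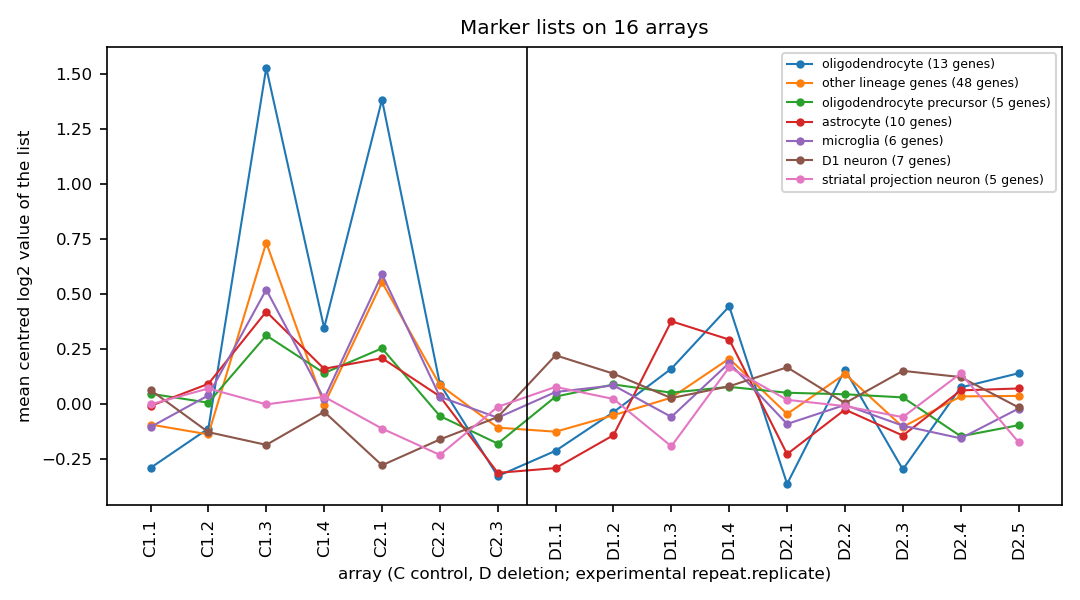
Mean centred log2 value (y axis) of 7 marker lists on the 16 arrays (x axis, C control and D deletion, with experimental repeat and replicate), with the number of genes measured in each list and lines that imply no order. On C1.3 and C2.1 the oligodendrocyte list is at 1.53 and 1.38, the microglial list at 0.52 and 0.59, and the D1 neuron list at -0.19 and -0.28.

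RNA quality was read from the array's 3′ and 5′ control probe sets as a centred 3′ minus 5′ difference. It was 0.40 on control repeat 1 replicate 3 and 1.82 on control repeat 2 replicate 1, against -0.66 to 1.17 on the other 14. The former lay within the range of the others and the latter above it, and its part in the values of these genes was not tested.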

How the data were processed

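The authors deposited log2 values for 37174 probe sets on 16 arrays. GCOS 1.4 and GCRMA stand in the submitters' processing notes, with no role given. The deposited log2 values have a median of 0 over the 16 arrays for each probe set, to within 5e-07, so no level remains and no filter on dim probe sets was possible. The authors also deposited p-values, which per the file headers test genotype in a model of 2 factors. The 16 further columns of values beside them were not used. Groups, repeats and replicate numbers came from the titles, which call the replicates biological.

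The 62 control probe sets were left out. The platform annotation gave 1 gene for 29680 probe sets, several for 819 and none for 6613, and symbols were updated through gene identifiers in RefSeq (GRCm38.p6), which held 29539 of them. Tests were two-sided, with limma 3.58.1 in R 4.3.3, on genotype and experimental repeat (13 residual degrees of freedom), with p-values adjusted after Benjamini and Hochberg over 16206 genes or 37112 probe sets and a threshold of 0.05. Intervals are at 95%. On simulated arrays of all 16206 genes this test of deletion against control found 48.4% of 64 planted shifts of 0.3 log2, 82.8% of 64 shifts of 0.6 and 95.8% of 72 shifts of 1, and made 11 false calls among 16006 unshifted genes. The planted genes were drawn from all genes, whose median SD over 16 arrays was 0.17, against 0.45 for the members. These shares therefore do not carry over to the members, and shifts of these sizes could be missed in members that vary much. Correlations with Mog were computed over 14 arrays in Python 3.11.15.

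Members, lists, tests and the 2 control arrays to leave out were chosen with earlier results of these data known. By rule the text names 2 or 3 members of each role group, the extremes of the differences and every called member. Trf and Enpp2, which the rule also named, could not be measured, and other members are named beyond it. The 5 genes outside the list were those with the highest r with Mog. Alternatives left out each array, the repeat term or little-varying genes, or changed the weights, the scaling, the model, the gene's probe set or the arrays used.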

Additional observations from a re-analysis of the deposited data

Results flagged for a closer look

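In 13 of 90 tests of a member within a group of 4 or 5 arrays, 1 array lay far from the others of its group by Dixon's test. Chance flags about 1 in 20 groups, and over all genes 8.66% of such tests flagged an array, against 14.4% over the members. The members vary together by array, and control repeat 1 replicate 3 was already known to be high in genes like these, so the flags are not independent. The control group of repeat 2, with 3 arrays, was not tested. Control repeat 1 replicate 3 was high for Fa2h (2.12, next 0.25), Sox10 (1.02, next -0.041) and Opalin (0.77, next -0.00037). Deletion repeat 1 replicate 4 was high for Mog (1.03, next 0.015), Apod (0.63, next 0.039) and Gpr17 (0.26, next -0.011). Single deletion arrays were high for Olig2 (0.49 on repeat 2 replicate 5), Car2 and Pdgfra (0.47 and 0.16, both on repeat 2 replicate 2), Opalin (0.15 on repeat 2 replicate 4) and Nkx6-2 (0.15 on repeat 1 replicate 3). Mag was low on deletion repeat 2 replicate 1 (-0.83, next -0.025), and Gjb1 was low on control repeat 1 replicate 2 (-0.035, next -0.0061).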

How the results depend on the processing

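The count of members called higher or lower between genotypes was 0 under each of the 28 alternatives, and the median difference of the members stayed negative under each but the one without the 2 control arrays (0.0027). That alternative turned the sign of 14 members: Ugt8a 0.60, Tspan2 0.23, Cldn11 0.20, Ermn 0.18, Mal 0.14, Mog 0.093, Mbp 0.076, Sox10 0.071, Olig1 0.064, Mag 0.051, Car2 0.011, Cnp 0.0048, Gjb1 0.00059 and Qdpr -0.0081. The sign also turned for Qdpr without a repeat term (-0.015), for Tspan2 (0.11) and Gjb1 (0.0050) with the most variable probe set per gene, and for Cspg4 after quantile normalization (-0.0028). In repeat 1 alone it turned for Ugt8a (0.18), Cspg4 (-0.011), Pcdh15 (0.013), Gjb1 (0.011) and Qdpr (-0.092). Leaving out each array in turn gave -0.32 to 0.25 for Ugt8a, -0.24 to 0.057 for Tspan2, -0.036 to 0.062 for Qdpr, -0.036 to 0.0037 for Pcdh15, -0.028 to 0.0015 for Pdgfra, -0.027 to 0.025 for Cspg4 and -0.0083 to 0.0060 for Gjb1. Tspan2 and Ugt8a turned positive when either high control array was left out alone. Both arrays were picked for high values of genes like these, so sign changes without them were partly fixed in advance.

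Over all genes, 10 were called higher in deletion arrays. The number was 6 with the interaction model, 4 without a repeat term, 0 in either repeat alone, 1 without the 2 control arrays and 2 to 10 with 1 array left out. Genes called lower, 0 in the reported fit, were 1 after centring each array on its median, 2 with array weights and 0 to 1 with 1 array left out. Probe sets called higher, 11 in the reported fit, were 6 after median centring, 22 with array weights, 1 without a repeat term, 1 in repeat 1 alone, 0 in repeat 2 alone, 0 without the 2 control arrays and 0 to 16 with 1 left out. Probe sets called lower, 1 in the reported fit, were 5 with array weights, 2 after quantile normalization, 0 with the interaction model, without a repeat term, in repeat 2 alone or without the 2 control arrays, and 0 to 2 with 1 left out. Between repeats, members called higher went from 0 to 2 and lower from 1 to 2 without the 2 control arrays, with 0 to 2 and 1 to 2 when 1 array was left out. The interaction called 2 genes higher and 2 lower without the 2 control arrays, and 0 to 1 and 0 to 2 with 1 left out. The cause of these changes was not tested.

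Same-numbered control and deletion arrays correlated at 0.43, 0.33, -0.11 and -0.047 in repeat 1 and at -0.15, -0.30 and 0.29 in repeat 2, so the numbers were not taken to pair the mice. With the replicate block, 1 gene was called higher and 0 lower, 0 probe sets were called in either direction, and Gjb1 (0.0037) and Qdpr (-0.016) turned sign.

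The r with Mog turned sign for Gal3st1 (0.46) and Lhfpl3 (0.011) in repeat 2 alone, and for Lhfpl3 (0.0090), Nkx6-2 (0.092), Cryab (-0.036) and Apod (-0.056) without the 2 arrays farthest for Mog. Centred values hold no signal over background, so members too dim to show a difference could not be set apart from steady ones. This bears most on Pdgfra, Pcdh15 and Gjb1, whose residual SD was under 0.075.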
